A study of Homo sapiens with 6 samples.

Results

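The cytosolic ribosome is built from a small 40S and a large 60S subunit, and each of its proteins is needed in about equal number, so cells keep the genes for them among their most heavily transcribed. Most of these messages begin with a tract of pyrimidines, the terminal oligopyrimidine or TOP motif, through which mTORC1 signalling sets how well they are translated. A few genes encode a paralog that can take the place of the usual protein. The genes examined here are those whose symbol in the array's annotation is that of a 40S protein (RPS), a 60S protein (RPL) or a stalk protein (RPLP), with pseudogenes and the RPS6 kinases left out. The rule used the names only, and each gene was read from its brightest probe over all arrays. It gave 73 genes with 121 probes, out of 20046 named genes on an array of 47230 probes. RPLP0 and RPSA, which the rule also covers, were not analysed here.

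HN5 is an established line of squamous carcinoma cells from the human head and neck. Erlotinib inhibits the kinase of the epidermal growth factor receptor. The study compared erlotinib-sensitive parental HN5 cells with an erlotinib-resistant derivative, with 3 Illumina arrays in each group. The resistant cells had been grown in rising erlotinib for 3 months, up to 12.5 µM, and then kept at that dose for 6 months. They are 1 derived line, the labels do not say whether the drug was present at harvest, and they do not say whether the replicates of a group came from separate cultures. P-values therefore cover only the spread among these arrays, part of which may be technical. Resistance, drug exposure and time in culture cannot be told apart.

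Values are normalized log2 signals, which ran from 6.51 to 13.76 over the arrays, and a probe counted as above background past a limit close to 7. Each array's values had nearly the same distribution, so a difference is relative to the other genes of the array and says nothing of total RNA. Arrays correlated at r = 0.9965 to 0.9970 over all probes within a group (6 pairs) and at r = 0.978 to 0.980 between groups (9 pairs). All 7 squamous epithelial markers with a named probe were above background on every array and all 7 fell, with a mean level of 11.41 to 11.55 in parental and 10.63 to 10.75 in resistant arrays. Of 8 fibroblast markers, 4 rose, and their mean level went from 6.91 to 6.94 in parental arrays to 7.57 to 7.59 in resistant arrays, while THY1 and PDGFRB were at background throughout. Of 7 leukocyte markers 1, CD68, rose, and PTPRC, CD3E, NKG7 and ITGAM were at background on every array (mean level of the list 7.46 to 7.47 against 7.68 to 7.70). Of 7 endothelial markers 1, PECAM1, rose and the other 6 were at background on every array, and their mean level was 6.79 to 6.80 against 6.86 to 6.87. In whole-culture RNA, fewer cells of a type and less RNA per cell cannot be told apart, and the part of these marker shifts in the results below was not tested.

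The starts of the messages show what most of the genes looked up share. In the windows below, taken from RefSeq on GRCh38.p14 in the direction of transcription, the first 15 bases lie before the annotated start and the other 15 after it, and capitals mark the unbroken run of C and T that begins at the start. The first 4 genes fell in resistant cells, the next 2 rose, and the rest are 2 paralog pairs and RPL39. The genes in the first 2 of these sets all have a tract and do not stand for every called gene. RPL4 and RPS7, which fell, and RPS28, which rose, had no tract at the annotated start and are not shown.
RPL13 (chr16:89560667-89560696, plus strand): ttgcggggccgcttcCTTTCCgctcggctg
RPL24 (chr3:101686704-101686733, minus strand): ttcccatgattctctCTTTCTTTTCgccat
RPL31 (chr2:101002274-101002303, plus strand): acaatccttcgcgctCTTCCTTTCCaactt
RPS6 (chr9:19380222-19380251, minus strand): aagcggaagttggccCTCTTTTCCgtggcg
RPL13A (chr19:49487593-49487622, plus strand): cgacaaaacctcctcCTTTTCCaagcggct
RPL21 (chr13:27251543-27251572, plus strand): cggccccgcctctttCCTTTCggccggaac
RPL36A (chrX:101390996-101391025, plus strand): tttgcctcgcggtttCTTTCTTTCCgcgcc
RPL36AL (chr14:49620612-49620641, minus strand): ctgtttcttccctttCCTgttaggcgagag
RPS27 (chr1:153990747-153990776, plus strand): atttccgctttcgctCCTTTCCggcggtga
RPS27L (chr15:63157463-63157492, minus strand): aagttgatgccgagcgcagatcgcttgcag
RPL39 (chrX:119791616-119791645, minus strand): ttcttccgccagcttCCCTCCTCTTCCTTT

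A tract was counted where the first base of the message was C and at least the next 4 were C or T, read on the transcribed strand. Of the 61 ribosomal protein genes with an entry in that table, 43 (70.5%) had it at 1 or more annotated starts, against 5.14% of all 27305 genes there. Both stalk genes, 25 of 34 genes for 60S proteins and 16 of 22 for 40S proteins had a tract, and none of the 3 paralogs in the table did (RPL36AL, RPS27L and RPL10L). The count began at the exact annotated base, so the split into genes with and without a tract depends on the annotated start. In RPL36AL, RPL19, RPL3 and RPS7, among the genes counted as without a tract, the run of C and T reached back before that base. In RPS28, counted likewise, a run of C and T began at the base after it. Called genes such as RPS7 and RPS28 therefore lack a tract only by this count. Genes with and without the tract were called in both directions. Of 42 tested genes with a tract 8 fell and 4 rose (median log2 difference -0.03), and of 17 without one 4 fell and 3 rose (median -0.02); the difference between these counts was not tested.

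Ribosomal protein genes differed by a median size of 0.08 on the log2 scale between parental and resistant cells, and RPL39L by far more. Of the 70 members above background on at least 3 arrays, 17 fell, 7 rose and 46 did not pass the test (limma, Benjamini-Hochberg over all 11065 genes tested). Over all genes 54.0% were called, 27.5% lower and 26.6% higher, beside 34.3% of the members. Of the 281 other genes with a mean signal of 12 or more, a level that 70% of the members reached, 44.1% were called, 24.2% lower and 19.9% higher. The members' median log2 difference was -0.04, beside -0.01 over all genes. Of the members, 11 passed with a change of at least 1.2-fold, against 36.7% of all genes, and 2, RPL39L and RPL13, with at least 1.5-fold, against 11.0% of all genes. The values of the 2 groups were fully separate for 27 members, 19 lower and 8 higher, where 59.9% of all genes did not overlap, 30.7% lower and 29.2% higher. The number called higher fell to 4 without parental replicate 1 and to 3 without parental replicate 2 or without resistant replicate 3.

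**Figure D1:**
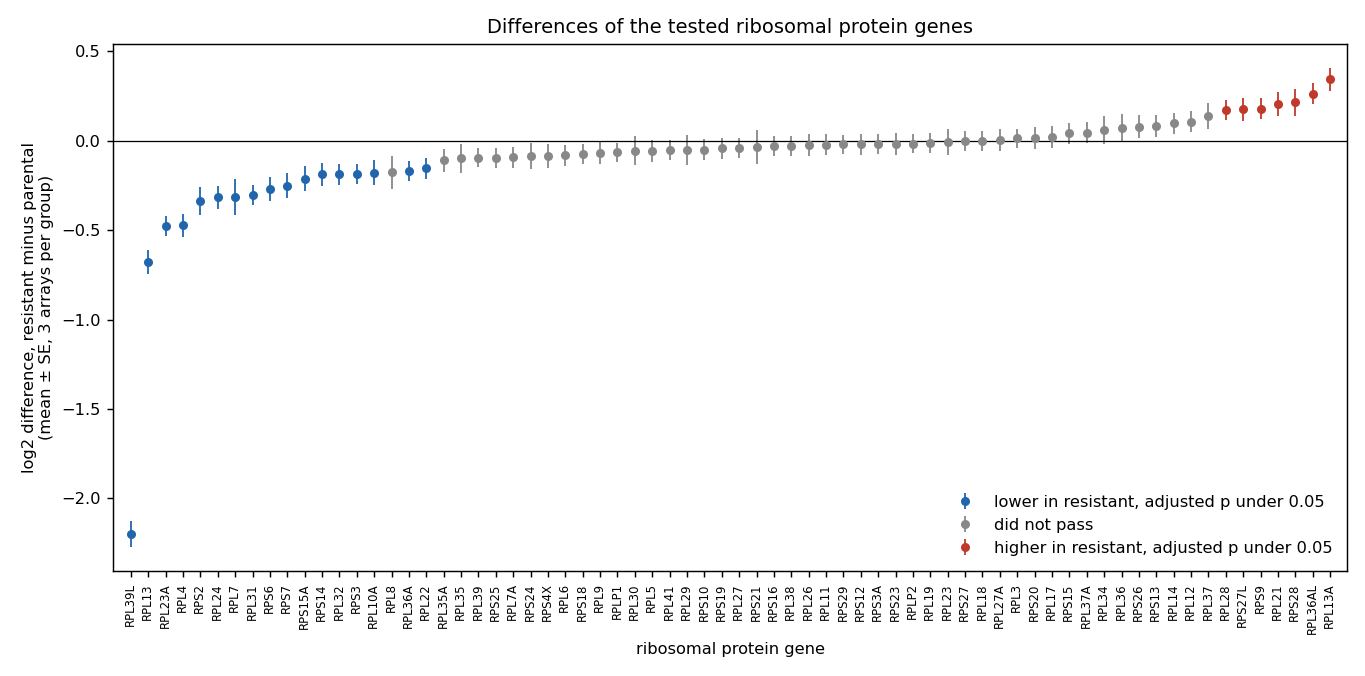
Log2 difference between resistant and parental cells (vertical axis, mean with standard error, 3 arrays per group) for each of the 70 tested ribosomal protein genes, in order. RPL39L lies alone at -2.20, and the other 69 genes lie between -0.68 and 0.34.

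RPL39L was the member with by far the greatest difference. It encodes the paralog of RPL39, a small protein that lines the exit tunnel of the 60S subunit, and is known for its expression in testis and in some cancers. Its log2 signal was 9.28, 9.48 and 9.55 on the parental arrays and 7.23, 7.30 and 7.19 on the resistant arrays. The resistant arrays lay far below every parental array and just above background. The difference of -2.20 (SE 0.0711, limma adjusted p = 3.13e-11) is a fall to a level 4.59-fold lower. The second RPL39L probe read 9.11, 9.01 and 9.01 in parental and 7.07, 7.04 and 7.13 in resistant cells, a difference of -1.96. Once the background mode was taken off, the brighter probe differed by -3.87; its resistant level lay close to the floor.

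RPL39 itself, the usual subunit, read 13.42, 13.42 and 13.43 in parental and 13.33, 13.31 and 13.35 in resistant cells. The groups did not overlap, but the difference of -0.10 (SE 0.0530) did not pass (limma adjusted p = 0.147), and the gene lay near the top of the scale. Levels of RPL39 and RPL39L come from different probes and are not set against each other. The genes next to RPL39L on chromosome 3 that were tested went both ways. ST6GAL1, a sialyltransferase gene on one side, fell by 1.03, and RTP4, an interferon-induced gene on the other, rose by 1.55. Of the 5 tested genes on each side 4 fell and 3 rose. That count takes in EIF4A2, which rose, and 2 small nucleolar RNA genes next to it in the gene order. Of these SNORA63 fell and SNORA4 did not pass. These neighbours were looked up after the value of RPL39L was seen.

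Among the other paralogs, RPL36AL rose and its near-identical partner RPL36A fell. RPL36AL read 12.44, 12.56 and 12.59 in parental and 12.82, 12.80 and 12.76 in resistant cells. All resistant arrays were higher, by 0.26 (SE 0.0587, limma adjusted p = 0.00179), and the second probe rose by 0.28. RPL36A, which encodes almost the same 60S protein from the X chromosome, read 8.44, 8.33 and 8.34 in parental and 8.21, 8.24 and 8.16 in resistant cells. It fell by 0.17 (SE 0.0578, limma adjusted p = 0.0248), or by 0.26 once the background mode was taken off. That call was lost without parental replicate 1 (adjusted p = 0.0991) and without resistant replicate 3 (0.0858), and over all alternatives the adjusted p lay between 0.0171 and 0.0991. Whether the probes of these 2 similar genes share signal was not tested.

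RPS27L encodes a paralog of the 40S protein RPS27 and is known as a target of p53. It read 11.29, 11.44 and 11.50 in parental and 11.54, 11.59 and 11.62 in resistant cells, and rose by 0.18 (SE 0.0641, limma adjusted p = 0.0325). The groups were separate by a narrow margin. The call was lost without parental replicate 1 (adjusted p = 0.148), resistant replicate 2 (0.0753) or resistant replicate 3 (0.0994) and with the background mode subtracted (0.116), over a range of 0.0169 to 0.148. RPS27 on its brightest probe read 13.55, 13.47 and 13.56 against 13.52, 13.59 and 13.47, a difference of -0.0009 (limma adjusted p = 0.990). Its dimmest probe, at 12.19, 11.98 and 12.12 against 11.72, 11.84 and 11.85, was lower in resistant cells by 0.30. The remaining RPS27 probe, with a mean of 13.15, differed by 0.0016 (limma adjusted p over probes = 0.985). The reading of RPS27 therefore depends on the probe.

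The paralogs RPL3L, known from striated muscle, and RPL10L, known from testis, were not tested. RPL3L was above background on 1 of 6 arrays, with 7.03, 6.99 and 6.99 in parental and 6.86, 6.75 and 6.81 in resistant cells. RPL10L was at background on every array. RPL3, the usual subunit, was bright and differed by 0.01 (limma adjusted p = 0.855). Both RPL10 probes were also at background, with means of 6.73 and 6.79 over the 6 arrays, although the ribosome needs RPL10 in every cell, so the array gave no usable reading of that gene.

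**Figure D2:**
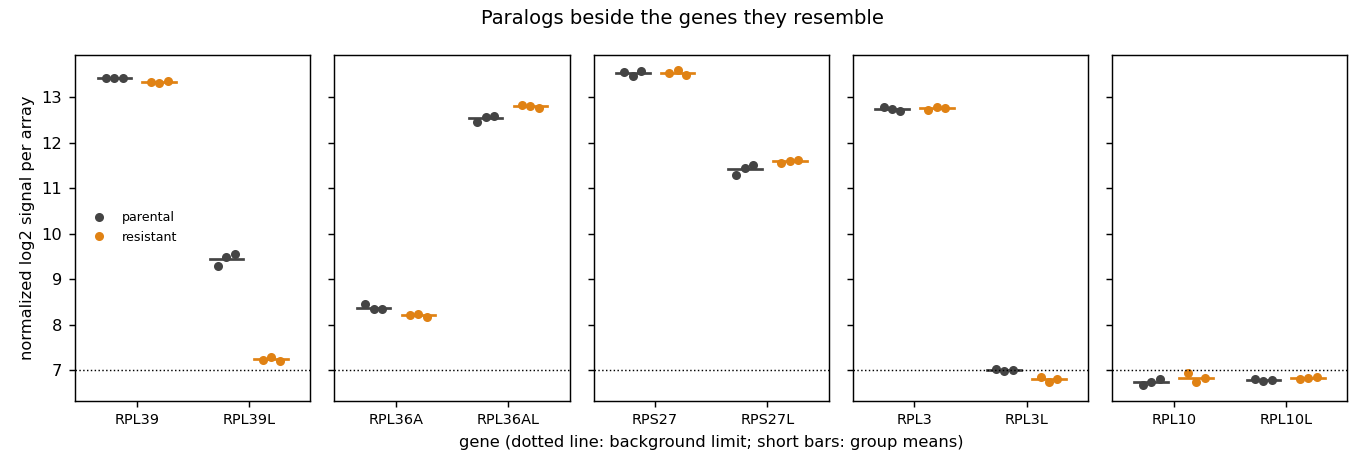
Normalized log2 signal on each array (vertical axis) for 5 pairs of a ribosomal protein gene and its paralog, with parental arrays in dark grey and resistant arrays in orange, bars at group means and a dotted line at the background limit. The group mean of RPL39L is 9.44 in parental and 7.24 in resistant cells, and both genes of the RPL10 pair lie under the limit.

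Of the 40 tested 60S proteins outside the stalk and the paralogs, 10 fell, 3 rose and 27 did not pass (median log2 difference -0.05), so 32.5% were called beside 54.0% of all genes. RPL13 had the greatest fall. It read 10.15, 10.35 and 10.22 in parental and 9.56, 9.49 and 9.64 in resistant cells, lower by 0.68 (SE 0.0670, limma adjusted p = 1.65e-06) or 1.60-fold, and its dimmer probe fell by 0.55. RPL23A, which sits beside the exit tunnel and contacts the signal recognition particle, read 9.74, 9.72 and 9.72 against 9.18, 9.31 and 9.26, and fell by 0.48 (SE 0.0567, limma adjusted p = 9.32e-06). RPL4, which reaches into the tunnel wall, read 12.25, 12.04 and 12.18 against 11.61, 11.76 and 11.68, and fell by 0.47 (SE 0.0669, limma adjusted p = 4.64e-05). For each of these 3 genes every resistant array was below every parental array.

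RPL24, at a bridge between the subunits, read 13.10, 13.18 and 13.07 against 12.88, 12.85 and 12.67, and fell by 0.32 (SE 0.0666, limma adjusted p = 0.00121). RPL31 read 13.15, 13.22 and 13.26 against 12.92, 12.94 and 12.86, and fell by 0.30 (SE 0.0568, limma adjusted p = 5.20e-04). Both genes kept apart by group despite lying close to the top of the scale. RPL7 read 11.05, 10.87 and 10.78 against 10.34, 10.63 and 10.79, and fell by 0.31 (SE 0.100, limma adjusted p = 0.0174). Its groups overlapped, and the call was lost without parental replicate 1 (adjusted p = 0.0800), without resistant replicate 1 (0.0810) and with the background mode subtracted (0.0865), over a range of 0.00342 to 0.0865.

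RPL13A, known also for silencing messages of inflammatory genes when released from the ribosome, had the largest rise when each member was read from its brightest probe. It read 11.40, 11.36 and 11.19 in parental and 11.64, 11.71 and 11.64 in resistant cells, higher by 0.34 (SE 0.0645, limma adjusted p = 5.11e-04). A larger rise, of 0.51, was seen on the dimmer RPL14 probe, with separate groups (limma adjusted p over probes = 1.39e-05). The brightest RPL14 probe gave no call, at 0.10. Taking the mean of its probes was the only alternative that called RPL14 higher (limma adjusted p = 3.09e-04). The reading of RPL14 therefore depends on the probe. RPL21 read 11.60, 11.55 and 11.62 against 11.69, 11.76 and 11.93, and rose by 0.21 (SE 0.0663, limma adjusted p = 0.0182). The call for RPL21 was lost without parental replicate 2 (adjusted p = 0.0635), without resistant replicate 3 (0.0938) and with the background mode subtracted (0.0847), over a range of 0.00848 to 0.0938. RPL28 was dim, at 7.43, 7.33 and 7.34 against 7.57, 7.50 and 7.55, and rose by 0.17 (SE 0.0564, limma adjusted p = 0.0188), or by 0.48 with the background mode subtracted. It lost the call without parental replicate 2 or 3 or resistant replicate 1 or 3 (adjusted p = 0.0507 to 0.0600), over a range of 0.00733 to 0.0600. The only RPL28 probe had a mean of 7.45, where the tested members' median level was 12.86. How well that probe reads the RPL28 message was not tested.

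RPL5 and RPL11, which together with 5S RNA bind MDM2 and so stabilise p53 when ribosome assembly is disturbed, gave no call. RPL5 read 12.38, 12.31 and 12.23 in parental and 12.22, 12.20 and 12.33 in resistant cells, with a difference of -0.06 (SE 0.0618, limma adjusted p = 0.480). RPL11 read 13.35, 13.33 and 13.24 against 13.25, 13.25 and 13.36, with a difference of -0.02 (SE 0.0593, limma adjusted p = 0.790). The groups of both genes overlapped. The stalk proteins, which recruit the translational GTPases, gave no call either, with differences of -0.06 for RPLP1 (limma adjusted p = 0.344) and -0.02 for RPLP2 (limma adjusted p = 0.829), at levels of 13.36 and 13.49.

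Of the 25 tested 40S proteins, 6 fell, 2 rose and 17 did not pass (median log2 difference -0.04), so 32% were called beside 54.0% of all genes. RPS2, near the entry of the message channel, had the greatest fall, from 13.22, 12.96 and 13.25 to 12.78, 12.89 and 12.75, by 0.34 (SE 0.0770, limma adjusted p = 0.00226). RPS6, the protein phosphorylated by S6 kinase downstream of mTORC1 and ERK, read 13.35, 13.20 and 13.16 against 12.88, 13.06 and 12.97. It fell by 0.27 (SE 0.0675, limma adjusted p = 0.00419), and its second probe by 0.32. RPS7, RPS15A, RPS14 and RPS3 also fell, by 0.25, 0.21, 0.19 and 0.19. Of these RPS15A lost the call without parental replicate 3 (adjusted p = 0.0594) or resistant replicate 3 (0.105), RPS14 without parental replicate 3 (0.107) or resistant replicate 2 (0.0705), and RPS3 without resistant replicate 3 (0.0643). With the background mode subtracted these 3 genes also lost it (0.0947, 0.0965 and 0.0736), and over all alternatives their adjusted p lay between 4.39e-04 and 0.107.

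The 2 genes for 40S proteins that rose were RPS28 and RPS9. RPS28 read 12.34, 12.19 and 12.52 against 12.59, 12.52 and 12.58, and rose by 0.21 (SE 0.0752, limma adjusted p = 0.0274). It lost the call without parental replicate 1 or 2 or resistant replicate 1 or 3 (adjusted p = 0.0629, 0.136, 0.0709 and 0.0682) and with the background mode subtracted (0.111), over a range of 0.00249 to 0.136. RPS9, whose yeast counterpart affects decoding accuracy, read 12.10, 12.15 and 12.25 against 12.34, 12.41 and 12.31, and rose by 0.18 (SE 0.0600, limma adjusted p = 0.0214). It lost the call without parental replicate 1 or 2 or resistant replicate 2 (adjusted p = 0.0828, 0.0570 and 0.0875) and with the background mode subtracted (0.0928), over a range of 0.0110 to 0.0928. The second RPS9 probe, with a mean of 11.93, differed by 0.11 with overlapping groups and did not pass (limma adjusted p over probes = 0.224). Of the 7 genes that rose, RPL13A and RPL36AL held their call under all 18 alternatives, and of the 17 that fell, RPL39L, RPL13, RPL23A, RPL4, RPS2, RPL24, RPL31, RPS6 and RPS7 held it under every alternative in which their probe was used.

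Averaged over the 67 tested members that are not paralogs, the log2 signal was 12.31, 12.28 and 12.30 on the parental arrays and 12.22, 12.25 and 12.22 on the resistant arrays. The resistant arrays were all lower, by 0.07 on average, with SDs of 0.0121 and 0.0154 (n = 3 each). The mean over 60S proteins differed by -0.08 and that over 40S proteins by -0.06. The median over all tested genes stayed at 8.25 in both groups. Of the summed linear signal of all tested genes, ribosomal protein genes made up 5.58% ± 0.0357 (SD, n = 3) on the parental arrays and 5.33% ± 0.0808 (SD, n = 3) on the resistant ones. The arrays gave 5.57%, 5.55% and 5.62% against 5.31%, 5.42% and 5.26%, so the groups did not overlap. Centring each array on the genes outside the family left the counts at 17 lower and 7 higher. The arrays already had nearly the same distribution, so this centring could change little.

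Many ribosomal protein genes lay near the top of the scale, and whether that compressed their differences was not tested. No saturation flags were used here, so nearness to the highest value on the arrays, 13.76, stands in for them. Of the 73 members 39 had a mean within 1 log2 unit of it, and they made up 26.9% of the 145 genes that bright. Among these 39 genes 8 fell and 31 did not pass, with a median size of difference of 0.0565. Among the 31 dimmer members that were tested 9 fell and 7 rose, with a median size of 0.154. At a mean of 13 or more the median size of difference was 0.0496 for 31 members and 0.0479 for 73 other genes, so the 2 were close there. In the next 3 ranges the members' value was the lower: the median size was 0.0910 for 18 members and 0.175 for 208 other genes between 12 and 13, 0.176 for 7 members and 0.243 for 549 others between 11 and 12, and 0.0784 for 5 members and 0.269 for 1074 others between 10 and 11. Between 9 and 10 it was 0.250 for 5 members and 0.257 for 1779 others, and below 9 it was 0.171 for 4 members and 0.158 for 7312 others. These differences between members and other genes were not tested.

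Dimmer probes for the same gene give a second reading. Of the 33 members with more than 1 tested probe, 20 had their brightest probe near the top of the scale. In 14 of those 20 the dimmest probe differed more than the brightest and in 6 it did not, and the median size of difference was 0.133 on the dimmest and 0.0657 on the brightest probes. In RPS24 the brightest probe differed by -0.08 and the dimmest fell by 0.41 (limma adjusted p over probes = 0.00131). In RPS15A the brightest fell by 0.21 and the dimmest by 0.49. The dimmer probes did not all point downward: the dimmest probe of RPL9 rose by 0.40 while the brightest differed by -0.07, and the dimmest of RPS29 rose by 0.28 while the brightest differed by -0.02. The dimmest probes of the 20 genes had a median level of 10.67, but some lay near the background limit. Those of RPS29, RPL41, RPL32 and RPL37A had means of 7.45, 7.36, 7.14 and 7.09. In 6 of the 20 genes the signs of the brightest and dimmest probes were opposite, and of the 33 members with several tested probes none had probes called in opposite directions by limma. Taking each gene's brightest probe below the limit, a choice made after seeing the data, left 49 members, with 15 lower and 9 higher.

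**Figure D3:**
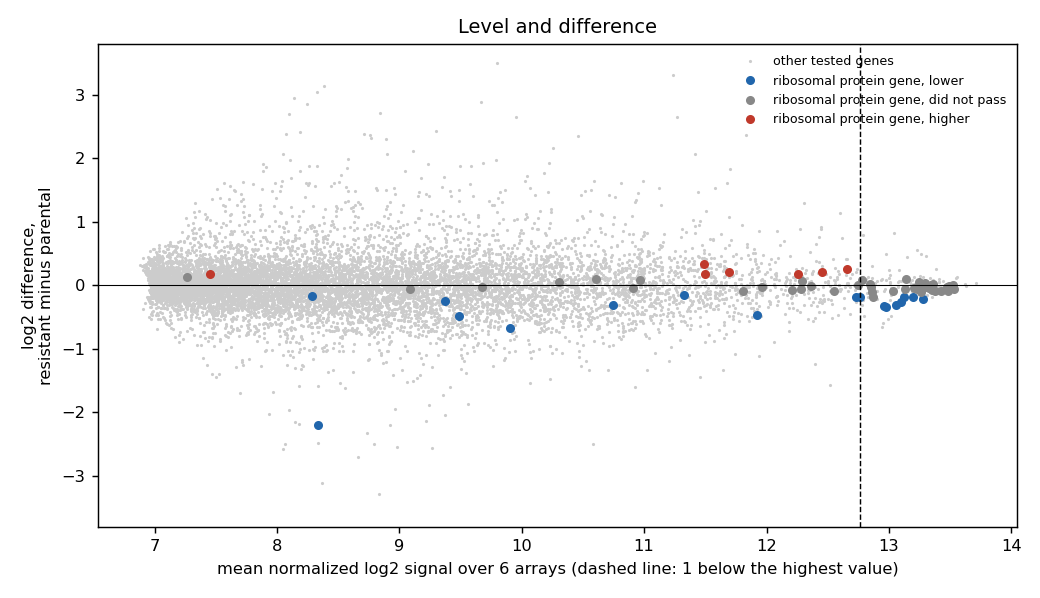
Log2 difference between resistant and parental cells (vertical axis) against mean normalized log2 signal over the 6 arrays (horizontal axis) for all tested genes, with ribosomal protein genes in colour by their call. Right of the dashed line, 1 log2 unit under the highest value, 39 ribosomal protein genes lie between -0.34 and 0.11.

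The 24 called members lay on 15 chromosomes, 7 of them on chromosomes 16 and 19. All 3 tested members on chromosome 16 fell: RPL13 by 0.68, RPS2 by 0.34 and RPS15A by 0.21. On that chromosome 62.6% of the 497 other tested genes fell and 7.04% rose, with a median log2 difference of -0.26, the lowest of the 23 chromosomes compared. Of the 5 tested genes on each side of RPL13 in the RefSeq gene order, 9 fell and 1 did not pass, and all 10, among them SNORD68 inside RPL13, had negative values, from -0.73 to -0.12. Of the 10 genes around RPS2 4 fell and 6 did not pass, and of those around RPS15A 3 fell, 1 rose and 6 did not pass. The count for RPS2 takes in SNORA10, which fell, and SNORA64, which did not pass, both inside RPS2 itself. On chromosome 19, 4 of the 9 tested members rose (RPL13A, RPS28, RPS9 and RPL28) and 5 did not pass. Of the 696 other genes there 29.3% rose and 18.0% fell. Of the 10 genes around RPL13A 2 fell, 1 rose and 7 did not pass. The 1 that rose, SNORD33, lies inside RPL13A itself, as do SNORD32A and SNORD34, which did not pass. RPL18, RPL36, RPS15, RPS16 and RPS19 on the same chromosome did not pass. RPL36AL lies on chromosome 14, where 42.4% of 361 other genes rose, and RPL4 on chromosome 15, where 41.4% of 355 other genes fell and 14.4% rose. RPS27L, on chromosome 15 too, rose. RPL23A fell on chromosome 17, where 22.7% of 666 other genes fell. Without chromosome 16, an alternative added after seeing the data, 14 of 67 members fell and 7 rose, beside 25.8% lower and 27.5% higher over all genes left. The chromosomes were looked at after the calls were known, and what links a gene's chromosome to its call was not tested.

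**Figure D4:**
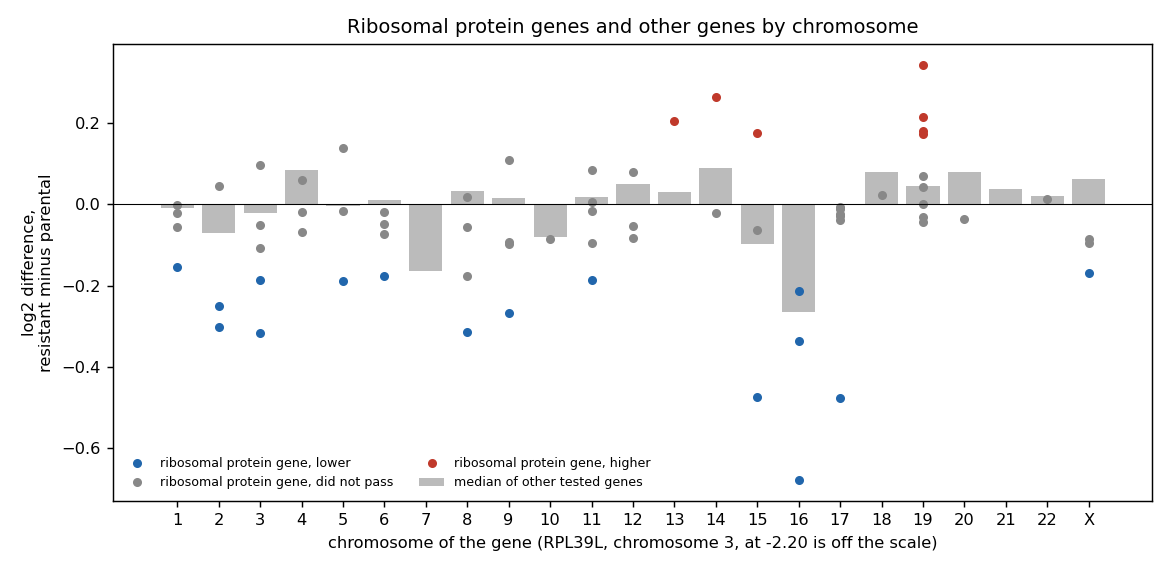
Log2 difference between resistant and parental cells (vertical axis) by chromosome (horizontal axis), with grey bars for the median of the other tested genes and points for ribosomal protein genes, coloured by call (RPL39L, at -2.20 on chromosome 3, is off the scale). On chromosome 16 the bar is at -0.26 and all 3 points are lower calls, and on chromosome 19 4 of 9 points are higher calls.

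Many ribosomal protein genes carry small nucleolar RNAs (snoRNAs), guides for the chemical modification of ribosomal RNA, inside their own span. The RefSeq gene order placed 52 snoRNAs within 25 members, of which 23 in 16 members were tested; 8 fell and 3 rose, beside 27.5% lower and 26.6% higher over all genes. Of the 5 tested within members that fell, 4 fell as well: SNORD68 in RPL13 by 0.28, SNORD16 in RPL4 by 0.35, SNORD4A in RPL23A by 0.20 and SNORA10 in RPS2 by 0.21, while SNORA64 in RPS2 differed by -0.15 (limma adjusted p = 0.0972). Within RPL13A, SNORD33 rose by 0.14 and SNORD32A and SNORD34 did not pass, and within RPL21, SNORA27 fell by 0.18, opposite to its host. In RPL7A, which gave no call, SNORD36A fell by 0.51 and SNORD36C rose by 0.35. Within RPL10, whose own probes were at background, SNORA70 fell by 0.29. The named snoRNA signals were dim, with means from 7.13 to 8.71. Whether their probes also read unspliced host RNA was not tested.

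Genes whose products assemble ribosomes mostly fell. Of 35 tested ribosome biogenesis genes 22 fell, 2 rose and 11 did not pass, beside 27.5% lower and 26.6% higher over all genes, and their median log2 difference was -0.23. PNO1, a 40S assembly factor, fell by 0.99 (SE 0.0664, limma adjusted p = 3.72e-08); once the background mode was taken off it differed by -1.48. NIP7, a ribosome assembly factor, fell by 0.90 (SE 0.0571, limma adjusted p = 2.02e-08). UTP4, of the small subunit processome, fell by 0.81, and NOLC1, a nucleolar chaperone of snoRNPs, by 0.77. NOP14 and GAR1 rose, by 0.35 and 0.21, and nucleolin (NCL) and fibrillarin (FBL) did not pass, at -0.15 and -0.17. NIP7, UTP4, NOB1 and RRN3 lie on chromosome 16, and without that chromosome 18 of 31 fell and 2 rose. The difference between this list and the ribosomal proteins was not tested.

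**Figure D5:**
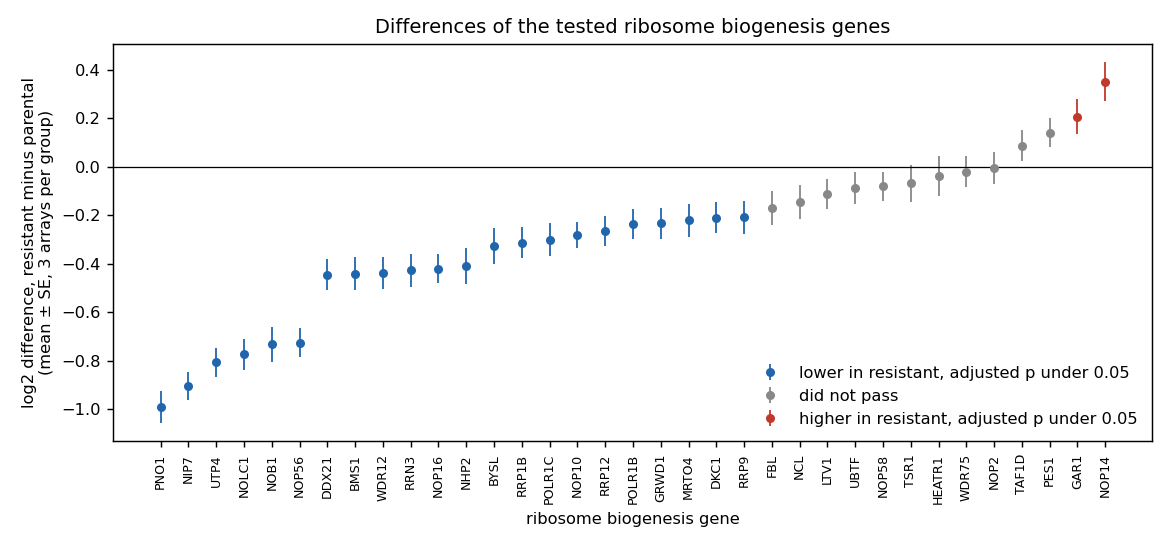
Log2 difference between resistant and parental cells (vertical axis, mean with standard error, 3 arrays per group) for the 35 tested ribosome biogenesis genes, in order. The values run from -0.99 for PNO1 to 0.35 for NOP14, and 22 genes are lower calls.

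Of 21 other tested genes whose messages are known to start with a TOP tract, 4 rose, 2 fell and 15 did not pass, with a median log2 difference of 0.04. That is 28.6% called, beside 54.0% of all genes and 44.1% of other genes with a mean of 12 or more, a level that 13 of the 21 reached. VIM, the mesenchymal filament protein vimentin, rose by 0.80, NAP1L1, a histone chaperone, by 0.34, and EEF1D, an elongation factor subunit, by 0.25, while HNRNPA1 fell by 0.31. The elongation factors EEF1A1 and EEF2 differed by 0.03 each (limma adjusted p = 0.650 and 0.714), with EEF1A1 at 13.71, near the top of the scale. Of 20 genes of the mTORC1 and S6 kinase pathway 6 rose and 4 fell (median -0.0042), so 50% were called, near the 54.0% over all genes. The ERK-activated kinase RPS6KA2 rose by 0.70 and RPS6KA1 fell by 0.38, the mTORC1 inhibitor TSC1 rose by 0.56, and the translation repressor EIF4EBP2 fell by 0.65. Once the background mode was taken off, RPS6KA2 differed by 1.33 and EIF4EBP2 also by over 1.5 times its first value. MTOR itself differed by 0.05 (limma adjusted p = 0.548).

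Of 9 tested snoRNA host genes that encode no ribosomal protein, 3 rose and 2 fell (median 0.08), so 55.6% were called, near the 54.0% over all genes. ZFAS1 rose by 0.48 and EPB41L4A-AS1 by 0.29, and SNHG1 and SNHG12 fell by 0.29 and 0.33. Of 11 tested p53 target genes, which are known to rise when free ribosomal proteins hold MDM2, 4 rose and 2 fell (median 0.03), so 54.5% were called, near the 54.0% over all genes. The death receptor gene TNFRSF10B rose by 0.59, and GDF15, at the background limit in parental cells, rose by 0.55, or by 2.18 once the background mode was taken off. TP53I3 fell to background in resistant cells, at least 1.28-fold. ZMAT3 rose by 0.31 on its brightest probe, but the mean of its probes turned the difference to -0.04 (adjusted p = 0.592); over the other alternatives the adjusted p lay between 0.00118 and 0.0281. CDKN1A, the cell cycle inhibitor p21, differed by 0.03 (limma adjusted p = 0.706).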

How the data were processed

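Each probe has 1 deposited value per array, a log2 signal that the authors had normalized; how they did so is not stated in the labels, and base 2 was read from the range of the values. Per the labels' protocols, Trizol-extracted total RNA was column-purified, treated with DNase and biotin-labelled. The 12 columns of signals before normalization and of detection p-values were not used, because their names tie to no sample, so the planned correction of raw signals was not run. Groups and replicate numbers came from the titles. Probes were named through the platform annotation (30112 with 1 symbol, 8 with several, 17110 unnamed here). On each array the background limit was the mode plus 3 SD of the values below it, taken around the mode, and probes above it on at least 3 arrays were kept, the brightest per gene. Resistant and parental arrays were compared with limma 3.58.1 in R 4.3.3 (4 residual and 9.10 prior degrees of freedom), with Benjamini-Hochberg adjustment over all genes at 0.05; the probe-level p-values were adjusted over all named probes tested. The fit was tested on simulated data. Where every array of the dimmer group was at background, a fold is a lower limit taken from the mean limit. Precision is limited by having 3 arrays per group. The members and lists were chosen with earlier results of these data known. Named genes are the 8 highest and 8 lowest called members (7 rose in all), fixed members (stalk proteins, RPS6, RPL5, RPL11 and the paralog pairs), untested members and up to 4 genes of each other list with the smallest adjusted p. Other genes named were chosen after their values were seen. The sequences are RefSeq's, on GRCh38.p14, and a gene with several annotated starts is shown at the start with the longest tract.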

Additional observations from a re-analysis of the deposited data

How the results depend on the processing

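The counts of ribosomal protein genes, 17 lower and 7 higher, stayed within 1.5 times under the mean of probes, no filter, the strict filter, cyclic loess, centring, an intensity trend, array weights, the brightest probe below the ceiling limit and the removal of chromosome 16, the last 2 added after seeing the data. With the background mode subtracted they went to 10 lower and 3 higher. Without near-ceiling genes, which leaves 31 members, 9 were lower. Leaving out 1 array gave 12 to 16 lower and 3 to 6 higher. The replicate numbers are not stated to mark a shared batch. Deviations of same-numbered arrays correlated at 0.146, 0.00302 and 0.0878, and not every array correlated best with its own number; the replicate block kept 17 lower and 7 higher, and the biogenesis genes went from 24 to 25 called. The counts of the other 4 lists stayed within 1.5 times in every alternative run. Over 44 named genes, 743 of 770 alternative values kept their direction and call, 25 lost the call, 1 gained it (RPS27, lower by 0.30 on its brightest probe below the limit) and 1 reversed (ZMAT3, -0.036 with the mean of its probes). The cause of these changes was not tested. Whether signal near the top of the scale understates changes was not tested.
The planned normexp correction of the signals before normalization was not run, because their columns tie to no sample.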
